A study of Homo sapiens with 18 samples.

Results

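The kinesin motor family was followed in NCI-H2347, an established human lung cancer cell line, during exposure to pioglitazone. A gene was taken as a kinesin where its symbol begins with KIF and a digit, or with KIFC, leaving out antisense genes and pseudogenes. By this rule 41 of the 20046 genes with a named probe on the array were kinesins, and they were read by 57 probes. Of these, 26 gave signal above background (a detection p-value under 0.01 on at least 3 of 18 arrays) and were tested among 11680 genes. The other 15 were not tested: KIF2B and KIF4B, which act in mitosis, KIF1A, KIF3A, KIF5A, KIF5C, KIF13A and KIF17, which carry cargo, and KIF6, KIF9, KIF12, KIF19, KIF21B, KIF25 and KIF26A. No probe carried the name of KIF18B.

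There were 3 arrays for each of 6 groups. Cells in RPMI medium with 5% fetal bovine serum received 50 µM pioglitazone, or DMSO as the vehicle, 24 h after plating, and RNA was taken 12, 24 or 48 h later. Pioglitazone is a thiazolidinedione, a ligand that activates the nuclear receptor PPARγ. The labels number the 3 arrays of a group but do not say whether they were separate cultures. The p-values therefore measure only how far these arrays lay apart, and part of that may be technical.

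Kinesins are motor proteins that use ATP to move along microtubules or to take them apart at their ends. A subset of the family builds the mitotic spindle, moves the chromosomes and completes cytokinesis, and the messenger RNAs of these members are known to peak in G2 and M phase. Other members carry vesicles, organelles and protein complexes in cells that are not dividing, often through light chains or adaptor proteins. The 26 tested genes comprised 11 mitotic kinesins, 9 transport kinesins and 6 with ciliary, microtubule-regulating or other roles.

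Each array detected 36.0% to 39.9% of its probes. The median signal of undetected probes, a measure of background, was 102 to 113 on 11 arrays and 138 to 153 on the other 7. Those 7 were the arrays of 24 h, in both treatments, and 1 array of 48 h, the one labelled pioglitazone replicate 3. The median signal over all probes was 166 on that array and 106 to 112 on the other arrays of 48 h, so the counts of each gene list at 48 h are also given without it. All 6 epithelial markers were detected on all 18 arrays, as were the lung lineage markers NKX2-1 and NAPSA, while the surfactant genes SFTPB and SFTPC were detected on none. Of the markers of other cell types, PTPRC and CD3E (leukocytes), PECAM1 and CDH5 (endothelium) and LUM (fibroblasts) were detected on none, and CD68, COL1A1 and COL1A2 on all 18.

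Every tested kinesin of the mitotic list was lower with pioglitazone at 48 h. All 11 fell, with log2 fold changes from -2.78 (KIF2C) to -1.59 (KIF22) and a median of -2.33, while the median of all genes tested was 0.01. The list was chosen with earlier results of these data known. KIF2A, a close relative of KIF2C that also takes apart microtubule ends, was placed outside it and did not fall (0.06). The count of 11 therefore describes this list, not every kinesin that may act in mitosis. Among all genes tested, 29.7% passed the same test and 15.4% did so as lower (limma, Benjamini-Hochberg adjusted p under 0.05 over 11680 genes). For all 11, each of the 3 treated arrays lay below each of the 3 vehicle arrays, as did 19.1% of all genes. Of the 9 transport kinesins, each read by its brightest probe, 0 fell and 3 rose at this time, and their median was 0.02. These arrays read RNA from whole cultures, in which fewer cells of a kind and less RNA per cell cannot be told apart.

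**Figure D1:**
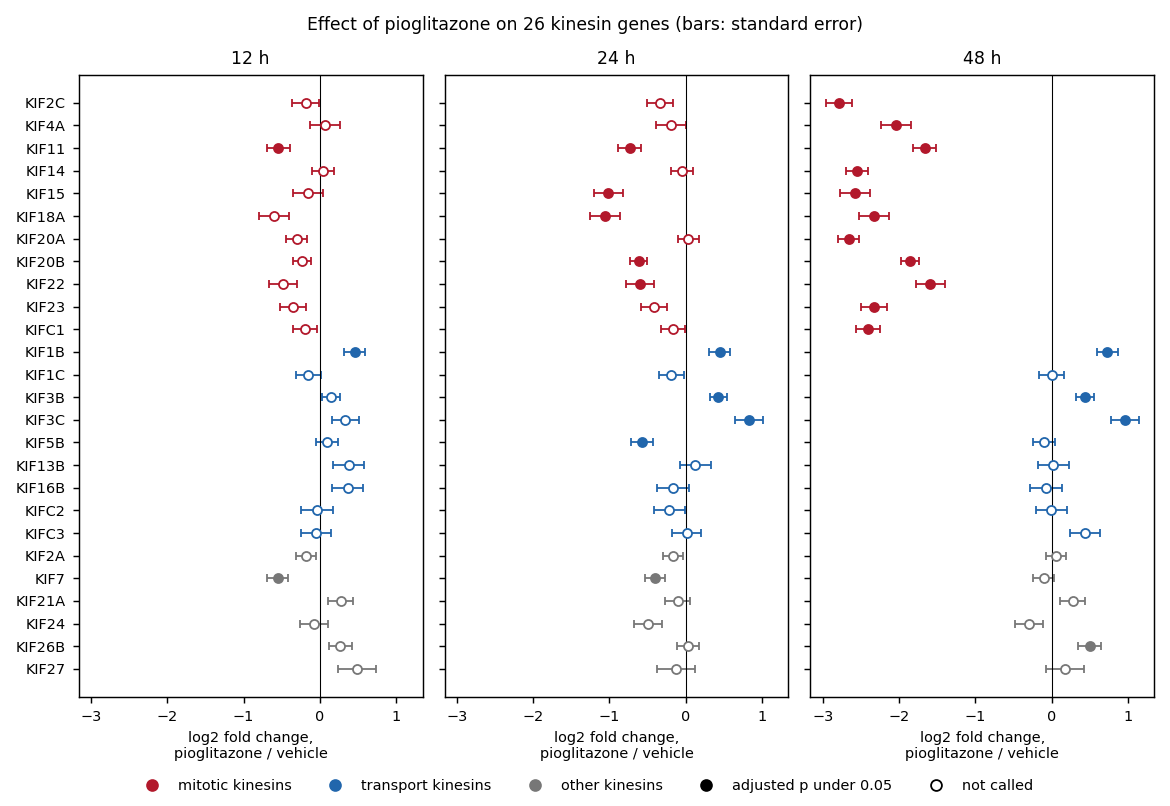
Log2 fold change of pioglitazone over vehicle for each of the 26 tested kinesins at 12, 24 and 48 h, from 1 limma fit of group means over 18 arrays with bars of 1 standard error and filled points for genes past the test. The mitotic kinesins lie between -2.78 and -1.59 at 48 h, and the transport kinesins between -0.10 and 0.96.

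Among the motors that set up the spindle, KIF11 (Eg5) slides antiparallel microtubules apart so that the spindle becomes bipolar. Its normalised log2 signal at 48 h was 8.23, 8.30 and 8.37 on the vehicle arrays and 6.92, 6.17 and 6.82 on the pioglitazone arrays, 3.17-fold lower with treatment (log2 fold change -1.67 ± 0.15 SE, adjusted p = 3.64e-07). KIF15, which backs up KIF11 in holding the spindle bipolar, read 7.97, 8.06 and 8.34 with vehicle and 5.69, 5.05 and 5.89 with pioglitazone, a 5.97-fold fall (-2.58 ± 0.19, adjusted p = 2.76e-08). KIFC1 (HSET), a motor directed to the minus end that focuses spindle poles, read 9.97, 9.79 and 9.84 with vehicle and 7.90, 7.45 and 7.02 with pioglitazone (-2.41 ± 0.16, adjusted p = 4.82e-09). The groups of none of the 3 genes overlapped, and the gap between them was larger than the spread within either group.

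Of the motors that act on chromosomes and kinetochores, KIF2C (MCAK) takes apart microtubule ends at wrongly attached kinetochores. Its log2 signal was 8.85, 8.65 and 8.77 on the vehicle arrays at 48 h and 6.24, 6.26 and 5.42 on the pioglitazone arrays, which was 6.89-fold lower (-2.78 ± 0.17, adjusted p = 3.30e-09). This was the largest fall in the family, but the third pioglitazone array was the lowest for KIF2C. Without that array its log2 fold change was -2.51, and KIF15 (-2.75), KIF20A (-2.68), KIF14 (-2.67) and KIF18A (-2.57) lay further down. KIF18A, which damps the oscillation of chromosomes at the metaphase plate, read 7.81, 7.90 and 7.59 with vehicle and 5.57, 4.82 and 5.91 with pioglitazone, 5.02-fold lower (-2.33 ± 0.20, adjusted p = 1.19e-07). KIF4A, a chromosome-bound kinesin that also sets the length of the central spindle, read 7.97, 7.5 and 7.53 against 5.66, 5.05 and 6.16, 4.12-fold lower (-2.04 ± 0.20, adjusted p = 5.35e-07). KIF22 (Kid) pushes chromosome arms away from the poles and had the smallest fall of the 11, 3.01-fold (-1.59 ± 0.18, adjusted p = 4.97e-06). Its signal was 8.97, 8.55 and 8.98 with vehicle and 7.53, 7.43 and 6.78 with pioglitazone, and the log2 fold change was -1.35 without the third pioglitazone array. KIF4B is a near-identical copy of KIF4A, and its own probe was detected on 0 arrays.

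The motors of the central spindle and of cytokinesis were 3.61-fold (KIF20B) to 6.33-fold (KIF20A) lower. KIF20A (MKLP2), which carries the chromosomal passenger complex to the central spindle, read 8.38, 8.24 and 8.20 with vehicle at 48 h and 5.92, 5.26 and 5.65 with pioglitazone, 6.33-fold lower (-2.66 ± 0.14, adjusted p = 4.09e-10). KIF14, which brings citron kinase to the midbody, read 8.74, 8.25 and 8.12 against 5.59, 5.81 and 6.05, 5.87-fold lower (-2.55 ± 0.15, adjusted p = 1.62e-09). KIF23 (MKLP1), the motor of the centralspindlin complex, read 8.98, 8.80 and 8.70 against 6.81, 6.11 and 6.58, 5.02-fold lower (-2.33 ± 0.17, adjusted p = 2.38e-08). KIF20B (MPP1), which is needed to finish cytokinesis, read 9.66, 9.30 and 9.56 against 7.80, 7.5 and 7.65, 3.61-fold lower (-1.85 ± 0.12, adjusted p = 3.30e-09). In each of these 4 genes the lowest vehicle array was above the highest treated array by more than 1 unit of log2 signal.

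Probes of the same gene did not always give the same size. A further probe of KIF11 gave -1.80 at 48 h, near the value above, while a further probe of KIF23, detected on 13 of 18 arrays, gave -0.88. A further probe of KIF18A was detected on 0 of 18 arrays (0.05 at 48 h) and was not used, so the KIF18A fold rests on 1 probe. On pioglitazone replicate 2 at 48 h the probes of KIF4A, KIF15, KIF18A and KIF20A were not above background. The sizes of these 4 folds, and their order, therefore depend in part on signal near the floor of the array. Over the alternative settings of the processing, KIF4A ranged from -2.07 to -0.95 and KIF15 from -2.58 to -1.28. KIF18A ranged from -2.33 to -1.07 and KIF20A from -2.66 to -1.37. All 11 falls at 48 h passed the test with any of the 18 arrays left out. Without the third pioglitazone array the log2 fold changes ranged from -2.75 to -1.35 and their median was -2.37.

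**Figure D2:**
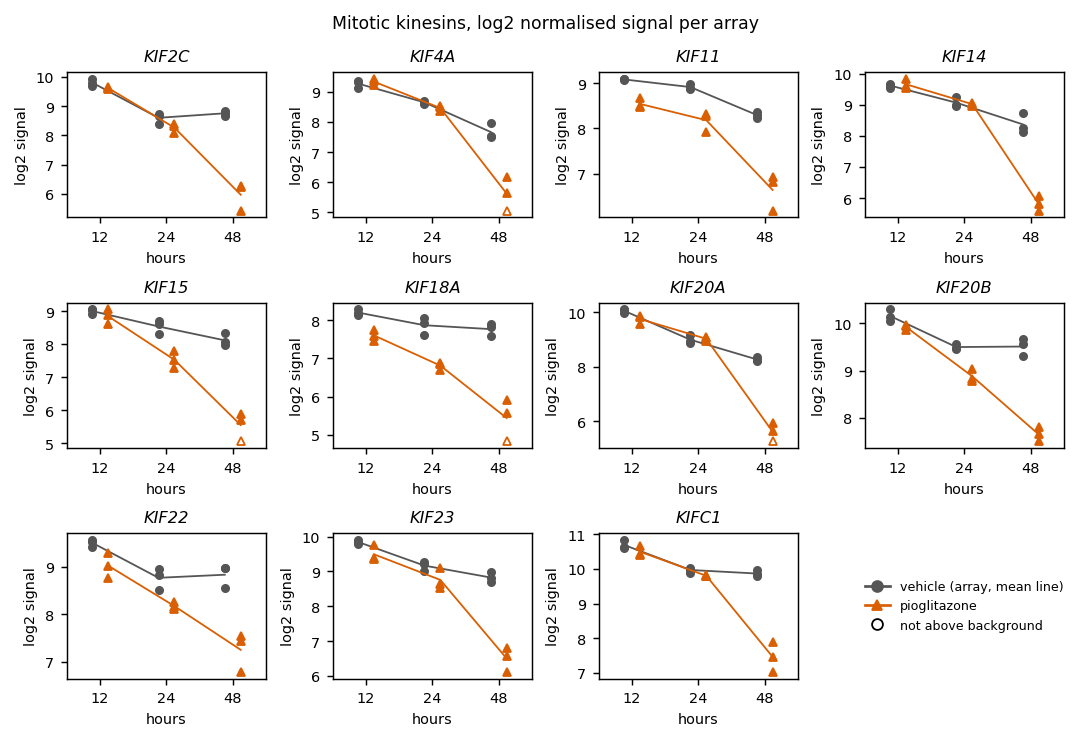
Normalised log2 signal of the 11 tested mitotic kinesins on each of the 18 arrays, by time (12, 24 and 48 h, equally spaced), with circles for vehicle, triangles for pioglitazone, open symbols where the probe was not above background, and lines joining group means. At 48 h the pioglitazone arrays lie below the vehicle arrays in all 11 panels, and at 12 h in 7.

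Fewer mitotic kinesins had moved at 24 h. Of the 11, 5 were lower and 0 higher, with a median of -0.41, where 12.8% of all genes passed as lower and 23.3% in either direction. In 8 of the 11 each treated array lay below each vehicle array, as in 25.1% of all genes. KIF18A and KIF15 had the largest changes at this time. KIF18A read 8.06, 7.92 and 7.62 with vehicle and 6.85, 6.87 and 6.71 with pioglitazone (-1.06 ± 0.20, adjusted p = 0.000955). KIF15 read 8.71, 8.31 and 8.62 against 7.81, 7.27 and 7.51 (-1.02 ± 0.19, adjusted p = 0.00113). KIF11 read 8.98, 8.88 and 8.89 against 8.29, 7.93 and 8.33 (-0.74 ± 0.15, adjusted p = 0.00243). The 2 groups did not overlap in any of the 3 genes.

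KIF20B, at 9.56, 9.47 and 9.45 with vehicle and 9.04, 8.82 and 8.77 with pioglitazone, was also lower at 24 h (-0.62 ± 0.12, adjusted p = 0.00104). KIF22 read 8.96, 8.51 and 8.84 against 8.11, 8.25 and 8.15 (-0.60 ± 0.18, adjusted p = 0.0259). The KIF22 call was lost without vehicle replicate 1 or 3 or pioglitazone replicate 1 or 3 of 24 h, with adjusted p-values up to 0.113. The other 6 did not pass the test. KIF23 had a log2 fold change of -0.41 (adjusted p = 0.0928), KIF2C of -0.34, KIF4A of -0.19 and KIFC1 of -0.17. KIF14 and KIF20A, which were 5.87-fold and 6.33-fold lower at 48 h, had log2 fold changes of -0.05 and 0.03 at 24 h. KIF14 read 9.0, 8.96 and 9.24 with vehicle and 9.04, 8.96 and 9.06 with pioglitazone, and KIF20A read 9.15, 8.94 and 8.89 against 9.09, 8.94 and 9.06, so that the groups of both overlapped.

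At 12 h 1 of the 11, KIF11, was lower, where 4.48% of all genes passed as lower and 8.8% in either direction. KIF11 read 9.10, 9.07 and 9.09 with vehicle and 8.67, 8.50 and 8.47 with pioglitazone (-0.54 ± 0.15, adjusted p = 0.0352). This call was lost without any of the 6 arrays of 12 h, with adjusted p-values up to 0.107. Without pioglitazone replicate 2 of 48 h KIF18A passed as well, and without replicate 3 of 48 h both KIF18A and KIF22 did. KIF18A had a larger difference that did not pass, at 8.13, 8.28 and 8.18 with vehicle and 7.59, 7.75 and 7.45 with pioglitazone (-0.60, adjusted p = 0.0689). The median of the 11 was -0.23, and in 7 of them each treated array lay below each vehicle array, as in 17.4% of all genes.

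The change between times was tested directly as a difference of the drug effect. From 24 to 48 h it moved further down in all 11 mitotic kinesins, with a median difference of -1.86 on the log2 scale, where 2.16% of all genes passed as lower and 3.41% in either direction. All arrays of 24 h had the higher background signal and only 1 of 48 h did, so time and background cannot be told apart in this comparison. With median scaling in place of quantile normalisation, 3 of the 11 differences passed. KIF20A had the most negative value of all 11680 genes in this comparison, -2.70 ± 0.20 (adjusted p = 3.46e-07), a rank looked up after its values were seen. KIF14 followed within the family at -2.51 and KIF2C at -2.45. The smallest differences were those of KIF11 (-0.93, adjusted p = 0.0257) and KIF22 (-0.99, adjusted p = 0.0459). The KIF22 call held in 5 of the 18 fits that left out 1 array, those without pioglitazone replicate 2 or 3 of 12 h, vehicle replicate 2 of 48 h, or pioglitazone replicate 1 or 2 of 48 h, and the highest adjusted p was 0.111. The KIF11 call held in 13 of 18, with a highest adjusted p of 0.0765, and was lost without vehicle replicate 2 or 3 of 24 h or of 48 h, or pioglitazone replicate 3 of 24 h. The KIF18A call (-1.27) was lost without vehicle replicate 3 of 24 h (adjusted p = 0.0550).

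From 12 to 48 h the effect differed in 11 of 11 as well, with a median of -2.11, where 5.22% of all genes passed as lower and 9.1% in either direction. From 12 to 24 h it differed in 0 of 11, where 0.693% of all genes passed. KIF15 had the largest difference there, -0.86 (adjusted p = 0.143). Time and background cannot be told apart from 12 to 24 h either. No transport kinesin and none of the 6 others passed the test for any of these 3 differences between times, which share their arrays with each other and with the comparisons above.

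Mitotic kinesins were also lower with time in the cells given vehicle alone. At 48 h 10 of 11 were lower than at 12 h, with a median log2 difference of -0.89, where 13.6% of all genes passed as lower and 25.5% in either direction. In vehicle KIF20A went from 10.11, 9.97 and 10.10 at 12 h to 9.15, 8.94 and 8.89 at 24 h and 8.38, 8.24 and 8.20 at 48 h (-1.79 from 12 to 48 h, adjusted p = 3.38e-07). KIF4A went from 9.37, 9.11 and 9.32 to 7.97, 7.5 and 7.53 over the same time (-1.60, adjusted p = 2.17e-05). The exception was KIF18A (-0.43, adjusted p = 0.115), and the KIF22 call (-0.68) was lost without vehicle replicate 2 of 48 h (adjusted p = 0.0666). At 24 h 8 of 11 were lower than at 12 h (16.5% of all genes passed as lower and 36.6% in either direction), but all arrays at 24 h had the higher background signal, so time and background cannot be told apart there.

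With pioglitazone 11 of 11 were lower at 48 h than at 12 h, with a median of -3.04, where 19.2% of all genes passed as lower and 38% in either direction. KIF20A again had the most negative difference of all 11680 genes: it read 9.59, 9.82 and 9.87 at 12 h and 5.92, 5.26 and 5.65 at 48 h (-4.15 ± 0.14, adjusted p = 7.39e-13). KIF14 (-3.84), KIF4A (-3.71) and KIF2C (-3.65) came next within the family. The vehicle drift and the drug effect share the vehicle arrays of 48 h and are given side by side only.

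To show what the mitotic kinesins share outside their signal, the window from 250 bases before to 50 bases after the start of each gene was read from NCBI RefSeq (GRCh38.p14). It was searched on both strands for CCAAT, the site of the factor NF-Y, and for TTTGAA or TTTAAA, the core letters of the cell cycle homology region (CHR) at which the DREAM and MuvB complexes are known to act. TTTAAA reads the same on both strands, and a promoter with several matches was counted once. Promoters were found for 14 mitotic, 11 transport and 9 other kinesins. TTTGAA or TTTAAA was in 12 of 14 mitotic (85.7%), 2 of 11 transport (18.2%) and 0 of 9 other kinesin promoters, and in 24.3% of all 27305 promoters. Together with CCAAT it was in 10 of 14 mitotic (71.4%) and 1 of 11 transport promoters (9.09%), and in 9.49% of all promoters. Among tested genes alone, 8 of 11 mitotic kinesins held both, against 6.57% of 9405 genes. The E2F-type letters TTTGGCGC were in 1 of 14 mitotic promoters, that of KIF15 (0.659% of all promoters), and TTTCCCGC in 0 of 14 (1.66% of all). A match is a match of letters only, and binding was not measured.

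The 120 bases before the start are printed for 5 mitotic kinesins that hold both motifs there, KIF11 and KIF18A, which were lower at 24 h and 48 h, and KIF4A, KIF20A and KIF23, which passed the test at 48 h only. KIF3B, a transport kinesin that was higher at 24 h and 48 h, is printed beside them. Capitals mark the matches to both motifs on either strand, so that a CCAAT match on the opposite strand reads ATTGG.
KIF11, chr10:92593010-92593129, plus strand: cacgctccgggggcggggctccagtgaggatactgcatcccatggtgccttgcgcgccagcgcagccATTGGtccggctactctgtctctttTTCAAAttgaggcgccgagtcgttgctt
KIF18A, chr11:28108157-28108276, minus strand: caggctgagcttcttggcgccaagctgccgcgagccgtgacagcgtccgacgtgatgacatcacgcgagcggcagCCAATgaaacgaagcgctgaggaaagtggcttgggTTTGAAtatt
KIF4A, chrX:70289984-70290103, plus strand: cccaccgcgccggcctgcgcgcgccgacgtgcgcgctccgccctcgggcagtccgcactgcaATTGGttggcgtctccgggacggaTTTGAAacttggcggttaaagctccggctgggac
KIF20A, chr5:138178992-138179111, plus strand: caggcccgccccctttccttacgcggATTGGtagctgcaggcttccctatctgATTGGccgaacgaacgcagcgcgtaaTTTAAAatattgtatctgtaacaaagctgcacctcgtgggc
KIF23, chr15:69414229-69414348, plus strand: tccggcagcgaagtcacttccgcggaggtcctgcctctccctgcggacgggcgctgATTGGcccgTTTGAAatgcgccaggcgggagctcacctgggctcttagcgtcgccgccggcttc
KIF3B, chr20:32277531-32277650, plus strand: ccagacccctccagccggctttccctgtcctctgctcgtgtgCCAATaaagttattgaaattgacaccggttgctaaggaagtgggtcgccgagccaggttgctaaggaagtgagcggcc

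In the 5 mitotic promoters CCAAT lay before TTTGAA or TTTAAA, with the second motif beginning at position -28 in KIF11, -10 in KIF18A, -34 in KIF4A, -41 in KIF20A and -55 in KIF23, where -1 is the base before the start. KIF20A held 2 CCAAT matches, at -94 and -67. These 5 were printed because they hold both motifs, so they cannot show whether the motifs set apart the genes lower at 24 h. In the whole window searched, KIF11, KIF18A and KIF20B, lower at 24 h, held both. Also lower at 24 h, KIF15 held no CCAAT and KIF22 neither TTTGAA nor TTTAAA. Of the tested mitotic kinesins not past the test at 24 h, KIF4A, KIF14, KIF20A, KIF23 and KIFC1 held both, and KIF2C held no CCAAT. KIF3B held CCAAT at -78 and neither TTTGAA nor TTTAAA.

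Among the transport kinesins KIF3B and KIF3C rose, and so did the brightest of 3 probes of KIF1B, with which the other probes disagree. At 48 h 3 of 9 were higher and 0 lower, where 14.3% of all genes passed as higher, and the 9 values ran from -0.10 to 0.96. All treated arrays lay above all vehicle arrays in 2 of 9 at 12 h, 3 of 9 at 24 h and 4 of 9 at 48 h, as they did in 15.6%, 20.1% and 18% of all genes. KIFC3 was among the 4 at 48 h, but its probe was not above background on any of the 6 arrays of that time. Without pioglitazone replicate 3 of 48 h, 3 of 9 were higher (12.7% of all genes in that fit) and the median was -0.13. KIF3C, a subunit of heterodimeric kinesin-2, had the highest log2 fold change. It read 5.82, 5.29 and 5.26 with vehicle at 48 h and 6.22, 6.35 and 6.69 with pioglitazone, 1.95-fold higher (0.96 ± 0.18, adjusted p = 0.000600). Vehicle replicates 2 and 3 were not above background for this gene, so the size of this fold and its rank depend on signal at the floor of the array. At 24 h it read 6.24, 6.23 and 6.50 against 6.81, 7.23 and 7.42, 1.78-fold higher (0.83 ± 0.18, adjusted p = 0.00297). Between 12 and 48 h KIF3C fell in vehicle (-0.87, adjusted p = 0.00185), while its difference with pioglitazone was -0.25 (adjusted p = 0.300), and the drug effect at 48 h was not shown to differ from that at 12 h (0.63, adjusted p = 0.139).

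KIF3B, the kinesin-2 motor subunit that pairs with KIF3A in intraflagellar transport, rose by 0.44 ± 0.12 at 48 h (adjusted p = 0.00863), from 9.08, 8.97 and 9.0 with vehicle to 9.38, 9.47 and 9.54 with pioglitazone. At 24 h it read 8.98, 9.08 and 9.07 against 9.64, 9.22 and 9.55 (0.43 ± 0.12, adjusted p = 0.0135). A further probe of KIF3B gave 0.43 and 0.46 at 24 and 48 h. The call at 24 h was lost without vehicle replicate 1 or pioglitazone replicate 1 or 3 of that time, with adjusted p-values up to 0.0610. The call at 48 h held in 8 of the 10 alternative settings of the processing. KIF3A, its partner, was not tested.

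KIF1B, which carries mitochondria and synaptic vesicle precursors, was higher at all 3 times by its brightest probe. At 48 h this probe read 9.67, 9.06 and 9.21 with vehicle and 10.005, 10.14 and 9.98 with pioglitazone, 1.66-fold higher (0.73 ± 0.14, adjusted p = 0.000679). At 12 h it read 9.72, 9.68 and 9.64 against 10.23, 10.12 and 10.06 (0.46, adjusted p = 0.0463), and at 24 h 9.76, 9.90 and 9.76 against 10.33, 10.03 and 10.42 (0.45, adjusted p = 0.0247). The treated arrays lay above the vehicle arrays each time, but the probes of KIF1B disagree. A second gave 0.42, 0.66 and 0.10 at 12, 24 and 48 h, and another gave -0.23, 0.18 and -0.31. With the mean of the 3 probes in place of the brightest, KIF1B passed at no time (adjusted p = 0.464, 0.0599 and 0.448). The call at 12 h was lost in 13 of the 18 fits that left out 1 array, the 6 arrays of 12 h among them (adjusted p up to 0.157), and that at 24 h without vehicle replicate 1 or 3 or pioglitazone replicate 1 or 3 of 24 h (up to 0.112).

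KIF5B, the heavy chain of conventional kinesin, fell at 24 h and did not pass the test at 12 or 48 h. It read 9.53, 9.32 and 9.26 with vehicle and 9.06, 8.49 and 8.84 with pioglitazone at that time (-0.57 ± 0.14, adjusted p = 0.00832), and the call was lost without pioglitazone replicate 2 (-0.42, adjusted p = 0.0530). At 48 h it read 9.22, 9.30 and 9.38 against 9.27, 8.91 and 9.40, and the groups overlapped. The effects at 24 and 48 h were not shown to differ (0.47, adjusted p = 0.213). KIF1C, KIF13B, KIF16B, KIFC2 and KIFC3 passed the drug test at no time, with log2 fold changes from -0.21 to 0.44. At 12 h 1 of 9 transport kinesins was higher, where 4.32% of all genes were. At 24 h 3 of 9 were higher (33.3%, against 10.5% of all genes) and 1 lower (11.1%, against 12.8%).

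**Figure D3:**
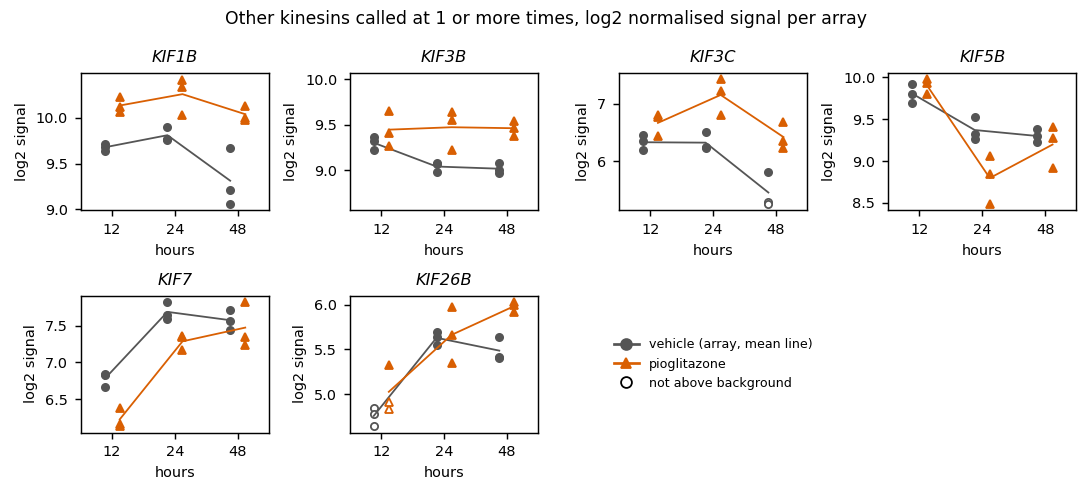
Normalised log2 signal on each of the 18 arrays for the kinesins outside the mitotic list that passed the test at any time (KIF1B, KIF3B, KIF3C, KIF5B, KIF7 and KIF26B), by time (12, 24 and 48 h, equally spaced), with circles for vehicle, triangles for pioglitazone, open symbols where the probe was not above background, and lines joining group means. KIF3C and the brightest probe of KIF1B lie higher with pioglitazone at 24 and 48 h, and KIF7 lies lower at 12 and 24 h.

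Of the 6 remaining kinesins, KIF7, which works at the tip of the primary cilium in Hedgehog signalling, was lower at 12 h (6.84, 6.66 and 6.83 with vehicle against 6.38, 6.16 and 6.13, -0.55 ± 0.14, adjusted p = 0.0170). It was lower at 24 h too (7.65, 7.82 and 7.60 against 7.17, 7.36 and 7.34, -0.40 ± 0.14, adjusted p = 0.0420), but not at 48 h (-0.10). Its level rose with time in vehicle by 0.80 from 12 to 48 h (adjusted p = 0.000452), opposite in sign to the mitotic kinesins. The call at 12 h was lost without vehicle replicate 1 or 3 or pioglitazone replicate 2 or 3 of 12 h (adjusted p up to 0.0675), and that at 24 h in 10 of 18 fits that left out 1 array (up to 0.144), the 6 arrays of 24 h among them. Each of these KIF7 calls held in 8 of the 10 alternative settings of the processing.

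KIF26B, an atypical kinesin known for its part in kidney development in mice, was higher at 48 h, at 5.64, 5.40 and 5.42 with vehicle and 6.03, 5.92 and 6.00 with pioglitazone (0.50 ± 0.15, adjusted p = 0.0164). This call was lost without vehicle replicate 2 or 3 of 48 h (adjusted p up to 0.0595), and it held in 8 of the 10 alternative settings of the processing. KIF26B was the 1 of 6 in its list that was higher at 48 h, and it passed without pioglitazone replicate 3 of that time too (0.49, adjusted p = 0.0361). KIF2A, KIF21A, KIF24 and KIF27 passed the drug test at no time. KIF2A is a close relative of KIF2C that also takes apart microtubule ends, and its log2 fold changes were -0.18, -0.17 and 0.06 at 12, 24 and 48 h. That set it beside KIF2C at 12 h, at -0.18, and apart from it at 48 h, where KIF2C was at -2.78.

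Genes that work with the mitotic kinesins were lower along with them. Of 18 tested mitotic partners, 16 were lower and 0 higher at 48 h, with a median of -2.09, where 15.4% of all genes were lower. CENPE (-2.18) is counted among these 18 but is itself a kinesin, which the symbol rule leaves out of the family. Without pioglitazone replicate 3 of 48 h, 16 of the 18 were lower (15.6% of all genes in that fit) and the median was -2.10. The largest falls, as log2 fold changes, were those of BIRC5 (survivin, a subunit of the chromosomal passenger complex that KIF20A carries), -2.84 ± 0.13, HMMR, a spindle protein, -2.69 ± 0.20, ASPM, a spindle pole protein, -2.61 ± 0.13, and PRC1, which bundles the microtubules of the central spindle and binds KIF4A, -2.58 ± 0.14. The pair that did not pass was NUMA1 (0.10) and MAPRE1 (0.02). At 24 h 10 of 18 were lower (12.8% of all genes) and at 12 h 1 of 18 (4.48% of all genes), with medians of -0.41 and -0.20, close to the medians of the mitotic kinesins at those times.

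Partners of the transport kinesins were higher at 48 h or did not pass the test. Of 16 adaptors and light chains, 0 were lower and 6 higher at 48 h, with a median of 0.28, where 14.3% of all genes were higher. Without pioglitazone replicate 3 of 48 h, 3 of the 16 (18.8%) were higher, near the 12.7% of all genes in that fit. The largest rises with all arrays were those of KLC4, a kinesin-1 light chain (0.97 ± 0.28, adjusted p = 0.0150), TRAK1, which couples kinesin-1 to mitochondria (0.71 ± 0.10, adjusted p = 6.53e-05), MAPK8IP3, a JNK-binding adaptor (0.70 ± 0.25, adjusted p = 0.0404), and AP1G1, a clathrin adaptor subunit (0.52 ± 0.14, adjusted p = 0.00881). The vehicle and pioglitazone arrays overlapped for KLC4, which was above background on 2 of 3 vehicle arrays, and for MAPK8IP3, while those of TRAK1 and AP1G1 did not. At 24 h 2 were higher (10.5% of all genes) and 1 lower (12.8%), and at 12 h 0 passed in either direction.

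Dynein, the motor that runs the opposite way along microtubules, was measured through 22 genes of cytoplasmic dynein and dynactin. At 48 h 5 were higher (22.7%, against 14.3% of all genes) and 2 lower (9.09%, against 15.4%), with a median of 0.18. Without pioglitazone replicate 3 of 48 h, 4 were higher (18.2%, against 12.7% of all genes in that fit) and 1 lower (4.55%, against 15.6%). DYNC1H1, the heavy chain, whose groups overlapped, rose by 0.71 ± 0.24, DYNLT1, a light chain, by 0.64 ± 0.15, CAPZB by 0.62 ± 0.10, and PAFAH1B1 (LIS1), a dynein regulator, by 0.60 ± 0.10. NDE1, a dynein regulator with a role at mitotic kinetochores, fell by 0.96 ± 0.11, and DYNLL2, a light chain, fell by 0.69 ± 0.19. Of 13 tubulins, 4 were higher (30.8%, against 14.3% of all genes) and 3 lower (23.1%, against 15.4%) at 48 h. Without pioglitazone replicate 3, 5 were higher (38.5%, against 12.7% of all genes in that fit) and 3 lower (23.1%, against 15.6%). TUBB3 (0.75 ± 0.13), TUBB2A (0.67 ± 0.12), TUBB6 (0.48 ± 0.11) and TUBB2B (0.48 ± 0.11) rose, while TUBG1, the gamma-tubulin that nucleates microtubules, fell by 1.14 ± 0.20, TUBE1 by 0.55 ± 0.16 and TUBB by 0.47 ± 0.11. Beta-tubulin genes are alike in sequence, and whether their probes read each other was not tested. At 24 h 6 of 13 tubulins were lower (12.8% of all genes) and 1 higher (10.5%), and at 12 h 5 were lower (4.48% of all genes) and 0 higher.

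**Figure D4:**
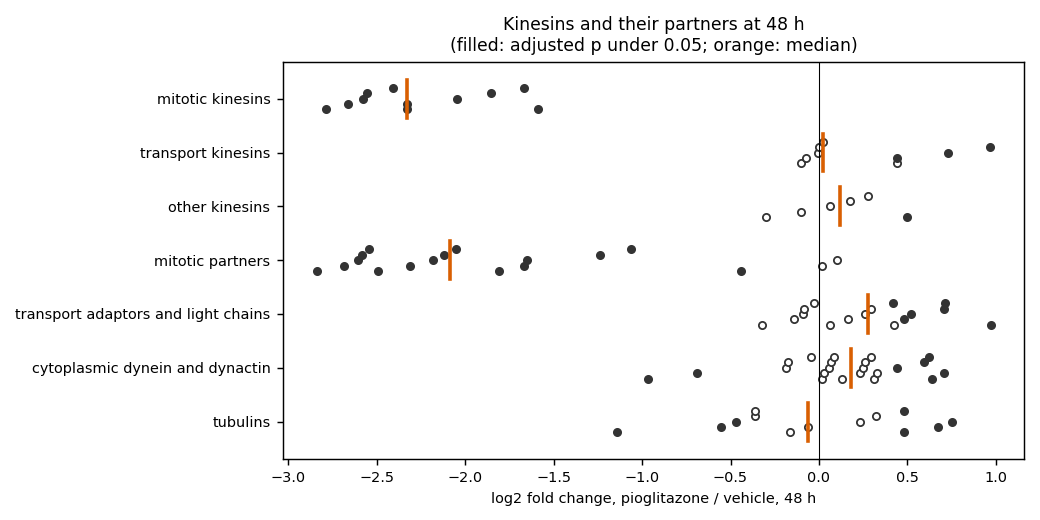
Log2 fold change of pioglitazone over vehicle at 48 h (horizontal axis) for each tested gene of the 3 kinesin lists and of the 4 lists of genes that work with them, with filled points for genes past the test and an orange bar at the median of each list. At 48 h the mitotic kinesins and their partners have medians of -2.33 and -2.09, while the medians of the other 5 lists lie between -0.06 and 0.28.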

How the data were processed

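RNA was read on Illumina HumanHT-12 v4 BeadChips. The authors deposited an intensity and a detection p-value for each of 47323 probes on 18 arrays, exported from GenomeStudio per the submitters' processing notes (version not given in the sources used here). The authors' processed values, deposited as linear intensity, served as an alternative.

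Background correction and quantile normalisation by neqc (limma 3.58.1, R 4.3.3; offset 16) gave log2 values. A gene was read by its brightest kept probe, and 1 fit of 6 group means gave all comparisons (12 residual degrees of freedom, median standard error of a drug effect 0.15). The number of arrays limits the precision. Pearson correlations across genes were 0.973 to 0.995 within groups.

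Probe names came from the platform annotation, and promoters from RefSeq. Named genes were all kinesins, with values per array for the tested mitotic kinesins and any other kinesin past the threshold, and in each partner list the 4 largest changes per direction past the threshold at 48 h. The members and lists were chosen with earlier results of these data known. The fit was tested on simulated data. Alternatives covered background, scaling, filters, probes, array weights, compared groups, a replicate block and leaving out each array.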

Additional observations from a re-analysis of the deposited data

Results flagged for a closer look

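The drug effect on the mitotic kinesins differed between times in 22 of 33 gene and time comparisons. This was by the test of the difference itself (limma, adjusted p under 0.05). Among all genes, 0.693% passed it from 12 to 24 h, 3.41% from 24 to 48 h and 9.1% from 12 to 48 h. With median scaling 3 of the 11 mitotic kinesins passed from 24 to 48 h and 5 from 12 to 48 h. Between 24 and 48 h the log2 fold change moved by -2.45 in KIF2C, -1.86 in KIF4A, -0.93 in KIF11, -2.51 in KIF14, -1.56 in KIF15, -1.27 in KIF18A, -2.70 in KIF20A, -1.24 in KIF20B, -0.99 in KIF22, -1.92 in KIF23 and -2.24 in KIFC1.

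Between 12 and 48 h it moved by -2.60 in KIF2C, -2.11 in KIF4A, -1.12 in KIF11, -2.59 in KIF14, -2.42 in KIF15, -1.73 in KIF18A, -2.36 in KIF20A, -1.62 in KIF20B, -1.10 in KIF22, -1.97 in KIF23 and -2.22 in KIFC1. All arrays of 24 h had the higher background signal. Both sets share the 6 arrays of 48 h, 1 of which, pioglitazone replicate 3, also had the higher background signal. Without it 10 of the 11 differences between 24 and 48 h passed the test, all but that of KIF22 (-0.76, adjusted p = 0.0712), and 11 of 11 between 12 and 48 h.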

How the results depend on the processing

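The 11 falls at 48 h passed the test under every alternative run, and 11 of 11 was also both the lowest and the highest count with 1 array left out. Earlier times rested more on the settings. The number of genes past the threshold was 23, 448 and 554 at 12, 24 and 48 h with median scaling in place of quantile normalisation, 2527 and 5780 at 12 and 24 h with array weights, 1521 at 48 h with only the compared groups in the fit, and 612 at 12 h with a replicate block. Leaving out 1 array gave 588 to 1635, 1859 to 3682 and 2760 to 3655. Median scaling moved the median of all genes to 0.11, -0.20 and 0.26, and the share of higher among the genes past the threshold from 49.1%, 45.0% and 48.1% to 82.6%, 25% and 61.6%. The cause of these changes was not tested.

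The median of the mitotic kinesins at 12, 24 and 48 h was -0.10, -0.64 and -1.94 with median scaling, and at 48 h -1.37 with no background correction, -1.94 with an offset of 50 and -2.16 with array weights. With 1 array left out it was -0.28 to -0.22, -0.57 to -0.30 and -2.44 to -2.13. The transport median at 48 h was 0.31 with median scaling, and with 1 array left out the medians were 0.14 to 0.23, -0.02 to 0.04 and -0.13 to 0.34. Mitotic kinesins lower at 12 h numbered 4 with no background correction or with array weights, 2 with the offset of 50 or the compared groups, and 0 with median scaling or the replicate block, and 0 to 3 with 1 array left out. At 24 h they were 3 with median scaling and 4 to 6 with 1 array left out.

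For transport kinesins the count at 12 h was 0 with median scaling, no filter, the mean of the probes or the replicate block and 2 with the compared groups, and at 24 h it was 0 with median scaling. At 48 h it was 2 to 3 over the alternative settings. Leaving out 1 array gave 0 to 1, 2 to 4 and 3 to 4. With median scaling, the difference between times passed in 3 of 11 mitotic kinesins from 24 to 48 h and 5 from 12 to 48 h, and the vehicle change from 12 to 24 h in 1. From 12 to 24 h the effect differed in 3 with array weights and 1 with the compared groups. Leaving out 1 array gave 0 to 0 from 12 to 24 h, 8 to 11 from 24 to 48 h and 11 to 11 from 12 to 48 h, 7 to 9 and 9 to 11 for vehicle to 24 and to 48 h, and 11 to 11 for pioglitazone.

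The sign turned where values were near 0. KIF14 was -0.045 at 12 h without pioglitazone replicate 1 (up to 0.10 without another array) and 0.037 at 24 h without vehicle replicate 3 (down to -0.10). KIF20A at 24 h was -0.20 with median scaling and -0.018 without vehicle replicate 3 (up to 0.11). KIF4A at 12 h was -0.013 without vehicle replicate 2 (up to 0.12). Arrays with the same replicate number did not vary together (0 of 9 correlations over 0.1), so the numbers were not taken as pairs, and the replicate block gave 612, 2193 and 2975 genes at 12, 24 and 48 h. The block could not be used for changes with time. With 3 arrays a group, a difference that misses the threshold is not shown to be absent.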
